A study of Mus musculus with 12 samples.

Results

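The genes described here are 10 mouse genes that act on lysophospholipids, the class of lipid to which the injected demyelinating toxin belongs: Lpcat1, Lpcat2, Lpcat3, Lpcat4, Lypla1, Lypla2, Pla2g7, Pla2g15, Enpp2 and Mfsd2a. They were taken by symbol from a table of 46078 gene identifiers, and all 10 were present and passed the filter on low counts. No other cutoff on their values was used, but the list and the tests below were chosen with earlier results of these data known. RNA was sequenced from spinal cord white matter that had been cut out of cryosections by laser capture microdissection, in 4 groups of C57Bl6 mice with 3 libraries each. Each library was a pool of 5 mice, so the spread between mice of a pool was not measured. The young naïve and middle-aged naïve groups had no lesion. The young injured and middle-aged injured groups were taken 72 h (day 3) after lysolecithin had been injected into the ventrolateral white matter. The study's methods give ages of 6 weeks and 8 months, whereas the labels carry only the words young and middle-aged. No group used here received a control injection, so the effect of lysolecithin and that of the needle cannot be told apart.

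Lysophospholipids are phospholipids that have lost a fatty acid. They act as detergents on membranes when they accumulate, and some of them are also signals. Cells remove them by putting a fatty acid back (reacylation), by cleaving off the remaining fatty acid or the head group, or by carrying them across membranes, and phospholipases produce them from ordinary phospholipids. Lysolecithin is lysophosphatidylcholine, the substrate of several of the enzymes below. In white matter it strips myelin from axons, after which macrophages and microglia clear lipid-rich debris.

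Levels are given as counts per 1000000 counts of a library (CPM) after scaling of libraries by trimmed mean of M values (TMM). The captured tissue carried the markers of white matter, since 6 oligodendrocyte markers summed to between 53010 and 102000 CPM in the naïve pools and to between 7930 and 20260 CPM in the injured pools. All 6 oligodendrocyte markers fell with injury at both ages and all 6 pan-myeloid markers rose, from 71.8 to 147 CPM summed in naïve pools to 1373 to 1950 CPM in injured pools. Of the other marker lists, 4 of 5 astrocyte genes fell at both ages, 2 of 5 endothelial and 2 of 3 oligodendrocyte progenitor genes rose at both ages, 3 of 3 meningeal fibroblast genes rose at both ages, and 3 of 5 neuron genes were called lower at each age (Snap25 and Rbfox3 at both), with 1 called higher in middle-aged mice. Single markers of choroid plexus, neutrophils and T cells had at most 30 counts in any pool. Of these only the neutrophil marker S100a8 had enough counts to be tested. It had 0 counts in each naïve pool and was called higher with injury at both ages. In bulk tissue of this kind, fewer cells of a type and less RNA per cell cannot be told apart. Totals per library were 9834447 to 12807437 counts.

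Injury changed most of these genes, with genes of the same role going different ways among the acyltransferases and the phospholipases. In young mice 4 of the 10 were higher and 4 lower at an adjusted p under 0.05 by edgeR's quasi-likelihood test, against 28.3% of all 15866 tested genes called higher and 26.3% called lower. In middle-aged mice 4 were higher and 5 lower, against 29.2% called higher and 29.3% called lower over all tested genes. The same 4 genes rose at both ages: the lysosomal phospholipase gene Pla2g15, the acyltransferase genes Lpcat1 and Lpcat3, and the thioesterase gene Lypla1. Enpp2, Lpcat4, Mfsd2a and Pla2g7 fell at both ages, Lpcat2 was called lower in middle-aged mice and was not called in young mice, and Lypla2 was called at neither age. The median log2 fold change of the 10 was -0.27 in young and -0.079 in middle-aged mice, beside 0.00054 and -0.032 over all tested genes.

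**Figure D1:**
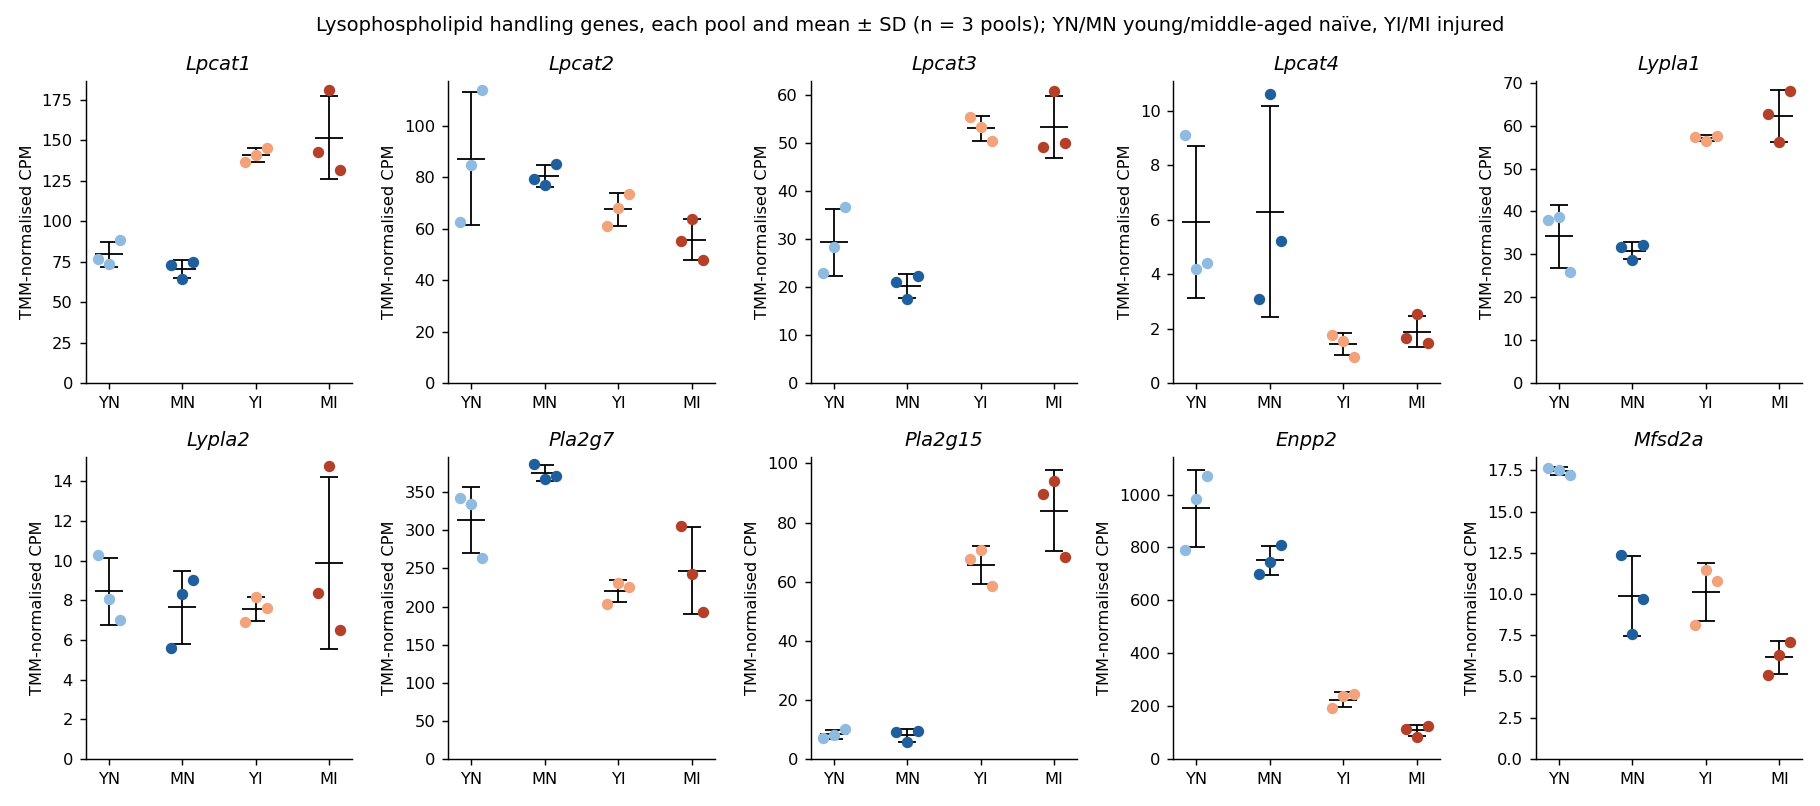
Expression of the 10 lysophospholipid genes in TMM-normalised CPM (vertical axes, linear and starting at 0) in each pool (points) of the 4 groups, with the mean and SD of 3 pools (bars). The injured pools of Pla2g15 lie between 58.4 and 93.9 CPM and its naïve pools at or below 10 CPM, while those of Enpp2 lie between 83.8 and 245 CPM and its naïve pools between 698 and 1071 CPM.

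**Figure D2:**
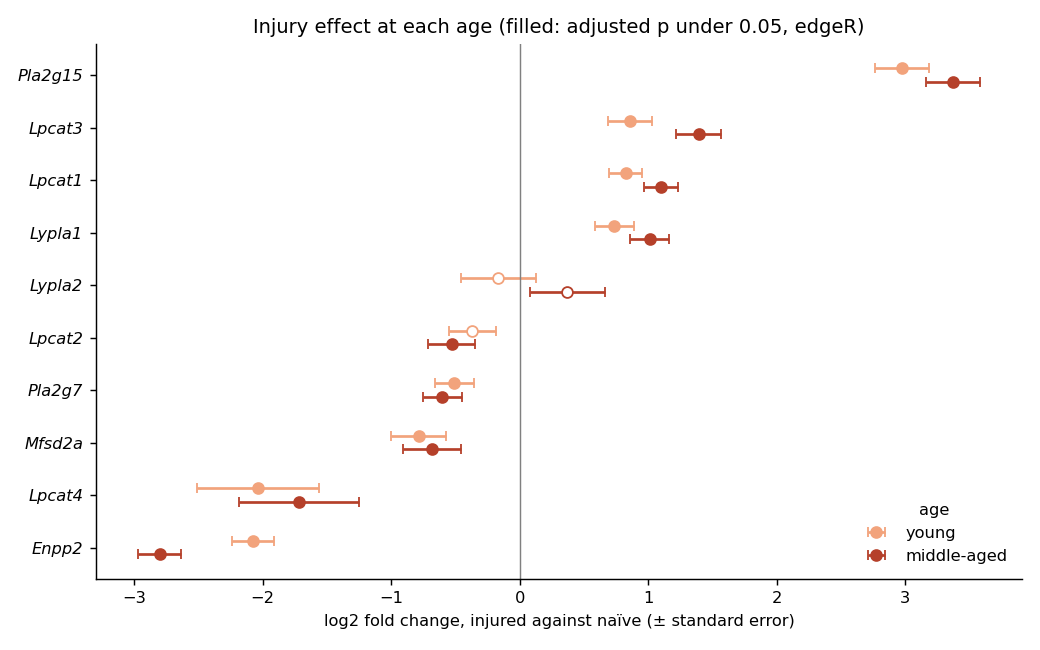
Log2 fold change of injured against naïve tissue (horizontal axis) for each gene in young (orange) and middle-aged (red) mice, with its standard error as a bar and filled points for an adjusted p under 0.05 by edgeR. Pla2g15 stands highest at 2.98 and 3.37, and Enpp2 lowest at -2.08 and -2.80.

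On a scale that allows genes to be ranked (CPM per kilobase of exon), Enpp2 was the highest of the 10 in young naïve tissue at 164 ± 25.0 CPM per kilobase (SD, n = 3). Pla2g7 followed at 108 ± 14.9, Lpcat2 at 25.8 ± 7.60 and Lpcat1 at 17.2 ± 1.64. The remaining members lay between 2.09 (Lpcat4) and 8.995 CPM per kilobase (Lpcat3). In young injured tissue the order at the top was Pla2g7 at 75.7 ± 5.02, Enpp2 at 38.8 ± 4.97, Lpcat1 at 30.5 ± 0.960 and Pla2g15 at 21.8 ± 2.14 CPM per kilobase. In middle-aged injured tissue Enpp2 ranked 4 at 18.6 ± 3.72, below Pla2g7 at 85.1 ± 19.7, Lpcat1 at 32.8 ± 5.56 and Pla2g15 at 27.9 ± 4.55. Pla2g15 thus stood at rank 9 in both naïve groups, and at rank 4 in young injured and rank 3 in middle-aged injured tissue. Several neighbours in these orders had overlapping pools: Lpcat2 and Lpcat1 in young naïve tissue, Enpp2 and Pla2g7 in middle-aged naïve tissue, Pla2g15 and Lpcat2 in young injured tissue, and Lpcat1 and Pla2g15 as well as Enpp2, Lpcat2 and Lpcat3 in middle-aged injured tissue. Lpcat4 had the lowest mean in all 4 groups, but its pools overlapped those of Pla2g15 in both naïve groups, so ranks 9 and 10 were not separated there.

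Pla2g15 (ENSMUSG00000031903, chr8:106150399-106164715, plus strand, GRCm38) encodes the lysosomal phospholipase A2, which acts on phospholipids delivered to the acidic compartment. Its level in naïve pools was 7.11, 7.98 and 10 CPM in young and 9.21, 5.56 and 9.36 CPM in middle-aged mice. In injured pools it was 67.7, 70.8 and 58.4 CPM in young and 89.7, 93.9 and 68.3 CPM in middle-aged mice. Each injured pool stood far above each naïve pool. The ratio of mean levels was 7.85 at the young age and 10.4 in middle-aged mice. By edgeR, its log2 fold change was 2.98 (SE 0.21, adjusted p = 3.41e-08) in young and 3.37 (SE 0.21, adjusted p = 9.50e-09) in middle-aged mice. The change was the highest among the 10 genes at each age, and leaving out any 1 pool gave log2 fold changes between 2.87 and 3.51 over both ages.

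Pla2g7 (ENSMUSG00000023913, chr17:43568098-43612201, plus strand) encodes the secreted platelet-activating factor acetylhydrolase, which cleaves short or oxidised fatty acids from phospholipids. Its level was 342, 334 and 263 CPM in young naïve pools and 387, 367 and 371 CPM in middle-aged naïve pools. After injury it was 203, 230 and 226 CPM in young and 306, 243 and 192 CPM in middle-aged pools. The injured pools were below the naïve pools of the same age without overlap, at both ages. Its injury effect on the log2 scale was -0.51 (SE 0.15, adjusted p = 0.0108 by edgeR) in young and -0.60 (SE 0.15, adjusted p = 0.00352) in middle-aged animals. The call in young mice was lost when libraries were scaled by their totals alone (-0.31, adjusted p = 0.098) and without young injured replicate 1 (-0.45, adjusted p = 0.0512). Pla2g7 is known from macrophages, among other cells, and was set against the pan-myeloid markers alone. Within each pool, log2 CPM of Pla2g7 minus the mean log2 CPM of the 6 pan-myeloid markers was 5.56 ± 0.54 (young) and 4.82 ± 0.39 (middle-aged) in naïve tissue and 0.80 ± 0.027 (young) and 0.68 ± 0.13 (middle-aged) in lesions (SD, n = 3). Against the myeloid markers Pla2g7 thus stood lower in each injured pool than in each naïve pool. The mean drop over both ages was -4.45 on the log2 scale (2-sided exact permutation test, p = 0.005, the smallest that 400 arrangements can give, adjusted p = 0.00643 over 9 tests). The markers themselves rose by a mean log2 fold change of 4.29 in young and 3.51 in middle-aged mice. Most of the drop is thus their rise, and the test does not measure a change of Pla2g7 itself. In naïve pools Pla2g7 alone exceeded the 6 markers summed, which were at 71.8 to 147 CPM. Pla2g7 shares 319 exon bases with the antisense gene 1700071M16Rik, which had between 57 and 122 counts in each pool against 2227 to 4638 for Pla2g7.

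The reacylating enzymes, which attach a fatty acid to lysophosphatidylcholine and so turn it back into phosphatidylcholine, did not move as a group. Lpcat1 (ENSMUSG00000021608, chr13:73467197-73516422, plus strand), best known from surfactant synthesis in the lung, was at 76.8, 74.0 and 88.3 CPM in young naïve and 73.0, 64.3 and 74.8 CPM in middle-aged naïve pools. In injured pools it reached 137, 141 and 146 CPM in young and 143, 181 and 132 CPM in middle-aged mice. The lowest injured pool was above the highest naïve pool. In young mice Lpcat1 rose by 0.82 (SE 0.13, adjusted p = 9.66e-05 by edgeR) and in middle-aged mice by 1.102 (SE 0.13, adjusted p = 5.69e-06), both as log2 fold changes.

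Lpcat3 (ENSMUSG00000004270, chr6:124663027-124704418, plus strand), which places polyunsaturated fatty acids into phospholipids and is a target of the liver X receptors, was at 23.0, 28.5 and 36.8 CPM in young naïve and 21.02, 17.5 and 22.3 CPM in middle-aged naïve pools. After injury it was at 55.5, 53.5 and 50.5 CPM in young and 49.3, 60.9 and 49.99 CPM in middle-aged pools. All injured pools were above all naïve pools. The rise was 0.86 (SE 0.17, adjusted p = 0.000664 by edgeR) in young and 1.39 (SE 0.17, adjusted p = 8.71e-06) in middle-aged mice on the log2 scale. Lpcat3 shares 334 exon bases with Emg1 on the opposite strand. Emg1, whose product acts in ribosome assembly, had 262 to 456 counts in naïve pools and 713 to 820 in injured pools, against 167 to 342 and 579 to 762 for Lpcat3, and whether reads of Emg1 entered the Lpcat3 count was not tested.

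Lpcat2 (ENSMUSG00000033192, chr8:92855339-92919279, plus strand), an enzyme of inflammatory cells that can also make platelet-activating factor, was at 62.8, 84.8 and 114 CPM in young naïve and 79.5, 76.9 and 85.05 CPM in middle-aged naïve pools. Injured pools were at 61.0, 68.1 and 73.7 CPM in young and 55.3, 63.9 and 48.0 CPM in middle-aged mice. The groups overlapped in young mice and did not in middle-aged mice. In young mice its log2 fold change was -0.37 (SE 0.18, adjusted p = 0.101 by edgeR, not called), where the young naïve pools differed among themselves by more than the groups did, and leaving out young naïve replicate 1 gave -0.56 (adjusted p = 0.0115). Lpcat2 fell by 0.53 in middle-aged mice (SE 0.18, adjusted p = 0.0217 by edgeR), a call that was lost with library totals (-0.42, adjusted p = 0.0652) and without middle-aged naïve replicate 3 (-0.49, adjusted p = 0.0612), middle-aged injured replicate 1 (-0.52, adjusted p = 0.0661) or middle-aged injured replicate 3 (-0.43, adjusted p = 0.101). Relative to the pan-myeloid markers of the same pool, log2 CPM of Lpcat2 was 3.69 ± 0.22 (young) and 2.61 ± 0.37 (middle-aged) in naïve tissue and -0.90 ± 0.089 (young) and -1.45 ± 0.16 (middle-aged) in lesions (SD, n = 3). The mean drop over both ages was -4.32 (2-sided exact permutation test, p = 0.005, adjusted p = 0.00643). Most of this drop is the rise of the markers, since Lpcat2 itself moved by -0.37 (not called) in young and -0.53 in middle-aged mice. The test thus does not measure a change of Lpcat2 itself.

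Lpcat4 (ENSMUSG00000027134, chr2:112239468-112247111, plus strand), which also uses lysophosphatidylethanolamine, had the fewest reads of the 10 genes. Its counts were 100, 46 and 41 in young naïve and 32, 101 and 65 in middle-aged naïve pools, and 24, 20 and 13 in young lesions and 20, 32 and 17 in middle-aged lesions. In the same order these were 9.11, 4.17, 4.41, 3.07, 10.6 and 5.20 CPM in naïve tissue and 1.76, 1.55, 0.979, 1.66, 2.56 and 1.47 CPM in lesions. Each injured pool was below each naïve pool, and the naïve pools were widely spread at both ages. For the pool with 13 counts, the level by library total was 1.06 CPM with a 95% Clopper-Pearson interval of 0.562 to 1.81 CPM, which covers counting error only. Lpcat4 fell by 2.04 (SE 0.48, adjusted p = 0.00223 by edgeR) in young and by 1.72 (SE 0.47, adjusted p = 0.00574) in middle-aged mice on the log2 scale. Without middle-aged naïve replicate 2 the latter value was -1.12 (adjusted p = 0.0343). The summed level of the 5 neuron markers also fell, although not each of them did. It was 2128, 1380 and 758 CPM in young naïve and 1233, 1330 and 1298 CPM in middle-aged naïve pools. In lesions it was 470, 331 and 548 CPM in young and 415, 481 and 486 CPM in middle-aged mice. Syt1 and Slc17a6 were not called in young mice. In middle-aged mice Tubb3 was not called and Slc17a6 was called higher (log2 fold change 1.52). None of the 5 was at 0. The mean log2 fold change of the 5 neuron markers was -0.97 in young and -1.02 in middle-aged mice. That of the 6 oligodendrocyte markers, all called lower, was -2.13 and -2.36. The part of either list in the fall of Lpcat4 was not tested.

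The share of each enzyme in the Lpcat family, taken as counts per kilobase within a pool, does not depend on how libraries are scaled. The Lpcat1 share was 36.5, 31.2 and 29.1% in young naïve and 33.7, 30.4 and 32.4% in middle-aged naïve pools, and 45.3, 45.1 and 45.6% in young injured and 49.0, 50.4 and 48.7% in middle-aged injured pools. The Lpcat3 share was 16.6 ± 0.928% in young naïve and 13.1 ± 1.15% in middle-aged naïve tissue, and 24.3 ± 1.84% and 24.8 ± 1.23% after injury (SD, n = 3). Lpcat2 was the most abundant of the 4 in each naïve pool, at 40.8 to 51.4% of the family, and it took 24.2 to 31.5% in the injured pools. Lpcat1 was the most abundant in each injured pool. The Lpcat4 share was between 2.33 and 8.21% in naïve pools and between 0.503 and 1.17% in injured pools. For each of the 4 shares the injured pools did not overlap the naïve pools, and the mean difference over both ages was 15.2 percentage points for Lpcat1, -21.3 for Lpcat2, 9.69 for Lpcat3 and -3.56 for Lpcat4 (2-sided exact permutation tests, p = 0.005 and adjusted p = 0.00643 for each). Shares of a family sum to 100%, so these 4 tests are not independent. Within an age, an exact permutation test of 3 pools against 3 cannot go below p = 0.1.

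**Figure D3:**
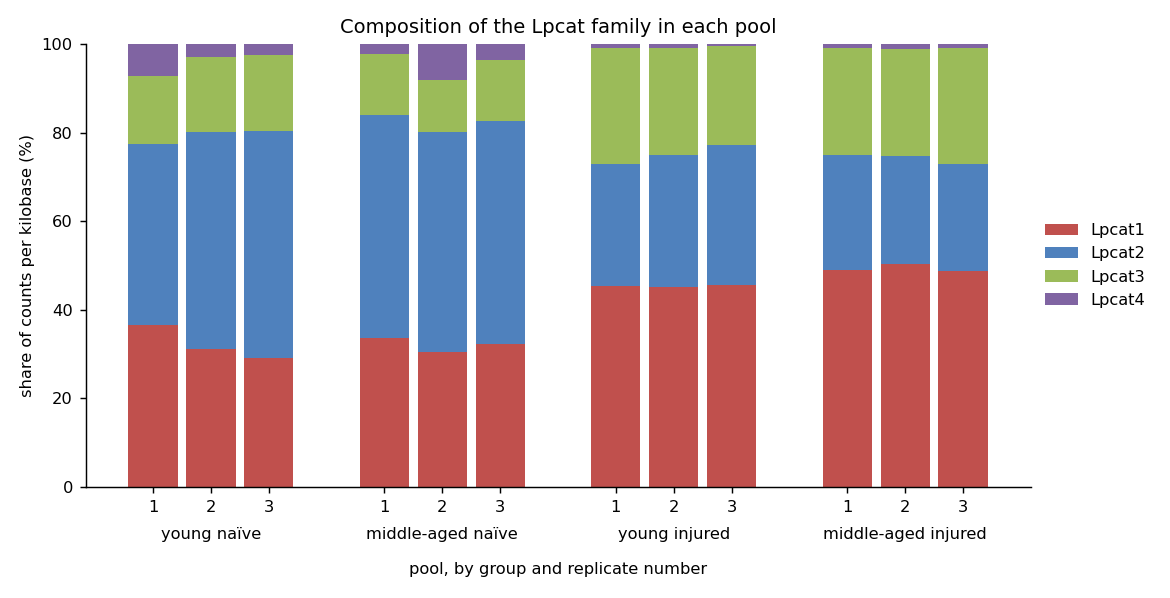
Share of Lpcat1 to Lpcat4 in the summed counts per kilobase of the family (vertical axis, percent) in each of the 12 pools, grouped by age and injury. Lpcat2 takes 40.8 to 51.4% of each naïve bar and Lpcat1 takes 45.1 to 50.4% of each injured bar.

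The upstream sequences of 3 genes that rose with injury are shown because these were the phospholipase gene and the acyltransferase genes that rose at both ages. RefSeq (GRCm38.p6) gave promoter windows for 8 of the 10 genes, from 250 bases before the annotated start to 50 after, and Enpp2 and Lypla1 were not among them. Only bases before the start and outside annotated exons are printed, on the plus strand, at chr8:106150104-106150353 for Pla2g15, chr13:73466981-73467196 for Lpcat1 and chr6:124662854-124663026 for Lpcat3. Capitals mark the GC box, GGGCGG on either strand.
Pla2g15: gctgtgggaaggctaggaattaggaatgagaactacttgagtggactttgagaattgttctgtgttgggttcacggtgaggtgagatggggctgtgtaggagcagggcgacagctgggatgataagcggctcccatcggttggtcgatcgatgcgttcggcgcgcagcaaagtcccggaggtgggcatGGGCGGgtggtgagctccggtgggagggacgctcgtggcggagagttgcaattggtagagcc
Lpcat1: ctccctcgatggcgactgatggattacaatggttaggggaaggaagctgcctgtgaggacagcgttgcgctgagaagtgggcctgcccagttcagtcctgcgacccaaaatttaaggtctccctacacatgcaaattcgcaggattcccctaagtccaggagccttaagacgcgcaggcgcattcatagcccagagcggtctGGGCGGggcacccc
Lpcat3: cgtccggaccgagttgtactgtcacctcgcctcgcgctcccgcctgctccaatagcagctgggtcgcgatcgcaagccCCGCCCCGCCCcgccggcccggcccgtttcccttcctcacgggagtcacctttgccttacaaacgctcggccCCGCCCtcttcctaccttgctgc
The GC box was found in 7 of the 8 windows, in all but that of Mfsd2a, and so in genes that rose and in genes that fell. It is common, being present in 35.7% of 32851 such windows over the genome. In Pla2g15 it began at -62 relative to the start, counted on the printed strand. Of 3 other motifs sought on both strands, the E-box core CACGTG (7.15% of all windows) and the purine-rich motif GAGGAAGT (3.2%) were in none of the 8, and TATAAA (13.6%) was in that of Lpcat2 alone. A match of letters is a description and not a binding site, and its absence says only that these letters are not in the window.

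Lypla1 and Lypla2 encode the acyl-protein thioesterases, which were first described as lysophospholipases and also remove palmitate from proteins. Lypla1 (ENSMUSG00000025903, chr1:4807788-4848410, plus strand) was at 38.0, 38.8 and 25.8 CPM in young naïve and 31.7, 28.6 and 32.2 CPM in middle-aged naïve pools. It was at 57.3, 56.4 and 57.7 CPM in young injured and 62.7, 56.1 and 68.0 CPM in middle-aged injured pools. Every injured pool was above every naïve pool. The rise was 0.74 (SE 0.15, adjusted p = 0.000903 by edgeR) in young and 1.01 (SE 0.15, adjusted p = 5.63e-05) in middle-aged mice on the log2 scale. Lypla1 shares 629 exon bases with Gm37988 on the same strand, which had 0 counts. Whether reads in the shared bases were left out of the Lypla1 count was not tested. Lypla2 (ENSMUSG00000028670, chr4:135968224-135972626, minus strand) was at 10.3, 8.07 and 6.99 CPM in young naïve and 5.57, 8.29 and 9.04 CPM in middle-aged naïve pools, and at 6.90, 8.14 and 7.61 CPM in young lesions and 8.38, 14.8 and 6.47 CPM in middle-aged lesions. The injured pools overlapped the naïve pools at both ages. Its log2 fold change was -0.17 (SE 0.29, adjusted p = 0.662 by edgeR) in young and 0.37 (SE 0.29, adjusted p = 0.294) in middle-aged mice, and the direction was not stable. It turned positive in young mice with library totals (0.031) and without young naïve replicate 1 (0.0037), and negative in middle-aged mice without middle-aged injured replicate 2 (-0.042). The log2 ratio of Lypla1 to Lypla2 counts within a pool was 2.01 ± 0.22 (young) and 2.04 ± 0.40 (middle-aged) in naïve tissue and 2.92 ± 0.13 (young) and 2.74 ± 0.75 (middle-aged) in lesions (SD, n = 3). The mean rise of the ratio over both ages was 0.80 (2-sided exact permutation test, p = 0.015, adjusted p = 0.0169). Young injured pools did not overlap young naïve pools, whereas middle-aged injured replicate 2, at 1.92, lay among the middle-aged naïve pools.

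Enpp2 (ENSMUSG00000022425, chr15:54838901-54952892, minus strand) encodes autotaxin, a secreted lysophospholipase D that converts lysophosphatidylcholine to the signalling lipid lysophosphatidic acid and is abundant in oligodendrocytes. Its level was 789, 984 and 1071 CPM in young naïve and 698, 745 and 810 CPM in middle-aged naïve pools. After injury it was 192, 236 and 245 CPM in young and 113, 83.8 and 126 CPM in middle-aged pools. The injured pools lay far below the naïve pools, and the middle-aged injured pools lay below the young injured pools. After injury the mean level was 4.23 times lower in young and 6.98 times lower in middle-aged animals. Enpp2 fell by 2.08 (SE 0.16, adjusted p = 1.04e-07 by edgeR) in young and by 2.80 (SE 0.17, adjusted p = 6.61e-09) in middle-aged mice on the log2 scale.

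Because oligodendrocyte markers fell in the same tissue, Enpp2 was also set against the 6 markers of that cell type within each pool. Log2 CPM of Enpp2 minus the mean of the markers was -2.71, -2.54 and -2.59 in young naïve and -2.66, -2.53 and -2.48 in young injured pools. In middle-aged mice it was -2.43, -2.29 and -2.24 in naïve and -2.56, -2.96 and -2.77 in injured pools. The young groups overlapped, and the 3 middle-aged injured pools lay below the 3 middle-aged naïve pools. The mean difference was 0.057 in young and -0.44 in middle-aged mice, and over both ages it was -0.19 (2-sided exact permutation test, p = 0.115, adjusted p = 0.115). Within middle-aged mice alone p was 0.1, the smallest that 3 pools against 3 can give in an exact permutation test. On this relative scale the fall of Enpp2 with injury was thus not distinguishable from that of the markers at this number of pools, which does not show that they fell alike.

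Mfsd2a (ENSMUSG00000028655, chr4:122946850-122961188, minus strand) encodes the sodium-dependent carrier of lysophosphatidylcholine that brings docosahexaenoic acid across the brain endothelium and is known for its part in the blood-brain barrier. Its level was 17.7, 17.5 and 17.2 CPM in young naïve and 12.4, 7.55 and 9.68 CPM in middle-aged naïve pools. It was 8.15, 11.5 and 10.8 CPM in young injured and 5.06, 6.31 and 7.08 CPM in middle-aged injured pools. At each age the injured pools were below the naïve pools. Mfsd2a fell by 0.79 (SE 0.22, adjusted p = 0.00646 by edgeR) in young and by 0.68 (SE 0.22, adjusted p = 0.017) in middle-aged mice on the log2 scale. The call in middle-aged mice was lost when only the pools compared were fitted (-0.70, adjusted p = 0.0579) and without middle-aged naïve replicate 1 (-0.49, adjusted p = 0.0805) or middle-aged injured replicate 1 (-0.56, adjusted p = 0.0819). The 5 endothelial markers summed to 51.5 to 71.6 CPM in naïve pools and 90.4 to 143 CPM in injured pools, with 2 of the 5 passing the test at each age and none at 0. Relative to these markers, log2 CPM of Mfsd2a was 0.69 ± 0.18 (young) and -0.23 ± 0.22 (middle-aged) in naïve tissue and -0.87 ± 0.48 (young) and -1.75 ± 0.20 (middle-aged) in lesions (SD, n = 3). The mean drop over both ages was -1.54 (2-sided exact permutation test, p = 0.005, adjusted p = 0.00643), and the injured pools did not overlap the naïve pools at either age. The markers themselves rose by a mean log2 fold change of 0.78 in young and 0.85 in middle-aged mice, with Pecam1 and Cdh5 the 2 called. Much of the drop is thus their rise, and the test does not measure a change of Mfsd2a itself.

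**Figure D4:**
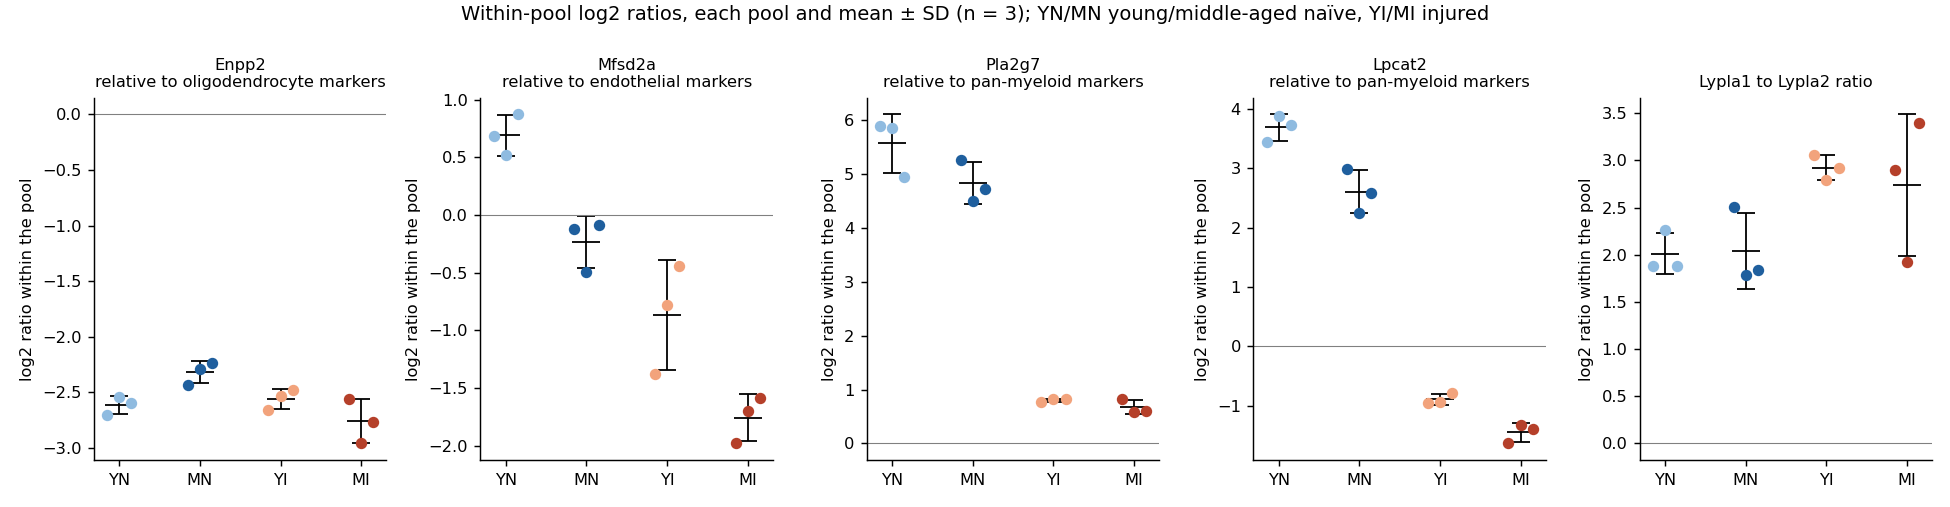
Log2 ratios taken inside each pool (vertical axes): Enpp2, Mfsd2a, Pla2g7 and Lpcat2 against the mean log2 CPM of markers of a cell type, and Lypla1 against Lypla2, with each pool as a point and the mean and SD of 3 pools as bars. The young injured pools of Enpp2 lie among the young naïve pools, at -2.66 to -2.48, while the injured pools of Mfsd2a, Pla2g7 and Lpcat2 lie below all naïve pools of the same age.

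The comparisons between ages asked whether middle-aged white matter differed from young white matter, before and after the lesion. They use the same 12 pools as the injury comparisons. In naïve tissue 0 of the 10 genes passed edgeR's test, against 3.8% of all tested genes called in either direction. An unadjusted p under 0.05 was found for 2 of the 10, against 2910 of all 15866 tested genes. With 1073 of 16066 tested genes called by DESeq2, it called 1 gene of the 10. That gene was Mfsd2a, which was lower in each middle-aged naïve pool than in each young naïve pool, with a log2 fold change of -0.82 (SE 0.22, adjusted p = 0.0518 by edgeR). Its adjusted p was 0.0113 by DESeq2, 0.0369 by edgeR with no filter on low counts, and 0.0214 by edgeR without middle-aged naïve replicate 1. Lpcat3 was also lower in each middle-aged naïve pool than in each young naïve pool (-0.53, adjusted p = 0.115 by edgeR) and Pla2g7 higher (0.26, adjusted p = 0.389), and neither was called.

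In injured tissue 1 of the 10 genes differed between ages. Enpp2 was lower in middle-aged than in young injured mice by -1.06 on the log2 scale (SE 0.16, adjusted p = 0.00537 by edgeR), against 0.908% of all tested genes called lower, and leaving out any 1 pool gave values between -1.17 and -0.91 with adjusted p-values up to 0.0372. In the same comparison 5 of the 6 oligodendrocyte markers were called lower, their summed level being 18250 to 20260 CPM in young and 7930 to 12450 CPM in middle-aged injured pools with no marker at 0, and their part in the result was not tested. Relative to those markers the young and middle-aged injured pools overlapped for Enpp2. The naïve pools did not overlap on that scale, with middle-aged pools higher at -2.43 to -2.24 and young pools at -2.71 to -2.54. Mfsd2a was lower in each middle-aged injured pool than in each young injured pool, with a log2 fold change of -0.72 that was not called (adjusted p = 0.172 by edgeR).

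The injury effect itself was compared between ages by an interaction term. By edgeR 0 of the 10 genes differed, against 0.139% of all tested genes. An unadjusted p under 0.05 was found for 2 of the 10, against 1574 of all 15866 tested genes. DESeq2 called 0 of the 10, against 228 of the 15016 genes it tested. Enpp2 had a difference of effects of -0.72 (unadjusted p = 0.0059, adjusted p = 0.235 by edgeR) and Lpcat3 one of 0.54 (unadjusted p = 0.0427, adjusted p = 0.48). The larger injury effects of several members in middle-aged mice, visible in the plot of fold changes, did not pass this test, which does not show that the effects were equal.

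Other genes of lysophospholipid metabolism, 47 in 5 roles, were examined in the same fit, and 42 of them had enough counts to be tested. The untested 5 were Pla2g10, Lipg, Lpar5, Gpr55 and Gpr174, each with at most 10 counts in any pool. Injury in young mice was called higher for 12 and lower for 13 of the 42, and injury in middle-aged mice was called higher for 13 and lower for 16. Over all tested genes 28.3% were called higher and 26.3% lower in young mice, and 29.2% and 29.3% in middle-aged mice, so that the young counts lay near the background. The median log2 fold change was -0.12 in young and 0.044 in middle-aged mice, beside 0.00054 and -0.032 over all tested genes.

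Among receptors for lysophospholipids 5 of the 9 tested were called higher in young and 6 in middle-aged mice, beside 28.3% and 29.2% of all tested genes, with 1 and 2 called lower, and no test set the role against other genes. Ptafr, the receptor for platelet-activating factor, rose by 4.51 (SE 0.31) in young and by 3.51 (SE 0.28) in middle-aged mice on the log2 scale, and Gpr34, a receptor for lysophosphatidylserine found on microglia, rose by 2.40 (SE 0.14) and 1.505 (SE 0.13). Gpr132 and P2ry10 had 0 counts in each naïve pool, and 16 to 26 and 8 to 15 counts in the young injured pools, so that against a floor of 3 counts per library they were at least 5.07-fold and 3.31-fold higher in TMM-scaled CPM. In middle-aged injured pools they had 21 to 41 and 24 to 47 counts, at least 8.47-fold and 10.55-fold higher. Lpar1, the receptor for lysophosphatidic acid that marks oligodendrocytes, fell from 825 ± 91.7 to 198 ± 19.7 CPM in young (log2 fold change -2.06, SE 0.18) and from 700 ± 103 to 141 ± 37.7 CPM in middle-aged mice (-2.31, SE 0.18). The median log2 fold change of the 9 receptors was 2.40 in young and 1.53 in middle-aged mice as fitted, and 1.73 and 1.53 with Gpr132 and P2ry10 at their bounds.

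Acyltransferases outside the Lpcat family were called higher for 2 and lower for 5 of 10 in young mice, and for 3 and 5 in middle-aged mice, against the shares over all tested genes given above. Agpat2, which makes phosphatidic acid from lysophosphatidic acid, rose from 1.98 ± 1.04 to 17.6 ± 2.02 CPM in young (log2 fold change 3.13, SE 0.34) and from 4.77 ± 2.23 to 24.8 ± 1.48 CPM in middle-aged mice (2.39, SE 0.31). Lclat1, which acts on cardiolipin, rose by 0.72 and 0.61. The genes that fell furthest in young mice were Agpat4 (log2 fold change -2.02 in young and -2.30 in middle-aged mice), Mboat2 (-1.17 and -1.49) and Agpat3 (-1.01 at each age), of which the Agpat genes encode enzymes of the same family as Agpat2 and Mboat2 an enzyme that reacylates lysophospholipids. Agpat5 fell in young mice (-0.66) and was not called in middle-aged mice (-0.14, adjusted p = 0.382 by edgeR). The median of this group was -0.50 in young and -0.33 in middle-aged mice.

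Phospholipases that release lysophospholipids were called higher for 3 and lower for 4 of 10 tested in young mice, and for 2 and 4 in middle-aged mice, beside the same background shares, with medians of -0.31 and -0.036. Plaat3, a phospholipase known from adipose tissue, had log2 fold changes of -2.02 (SE 0.14) in young and -2.69 (SE 0.15) in middle-aged mice, Lcat, the enzyme that esterifies cholesterol in lipoproteins, of -2.004 (SE 0.22) and -2.83 (SE 0.23), and the secreted phospholipase gene Pla2g3 of -1.07 and -0.86, all passing the test. Pla1a, which releases lysophosphatidylserine, rose by 1.75 and 2.42 from at most 17 counts in any naïve pool. Pafah2 rose by 0.56 and 0.75, while Prdx6 rose by 0.78 in young mice and was not called in middle-aged mice (0.38, adjusted p = 0.0736 by edgeR). Under edgeR alternatives Prdx6 was called there with library totals (0.50, adjusted p = 0.0189), no filter (0.40, adjusted p = 0.0228) and the replicate block (0.39, adjusted p = 0.0176). It was also called without middle-aged naïve replicate 2 (0.54, adjusted p = 0.0161) or middle-aged injured replicate 1 (0.51, adjusted p = 0.0322). Among the lysophospholipases and glycerophosphodiesterases 2 of 8 were called higher and 2 lower at each age, near the same background shares, with medians of 0.21 and 0.25. Pnpla7 rose by 2.29 and 0.91 and Abhd12, a lysophosphatidylserine lipase, by 0.45 and 0.43. Pnpla6, the neuropathy target esterase (-0.86 and -0.74), and Gdpd1, a lysophospholipase D of the cell interior (-0.58 and -0.54), fell. Of the 5 lipid phosphatases and carriers, 1 was called lower in young mice (Plpp3, -0.25, adjusted p = 0.0472 by edgeR) and 3 in middle-aged mice, where Plpp3 was at -0.27. These counts stand beside the same background shares, and the median of the group was -0.27 at each age.

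**Figure D5:**
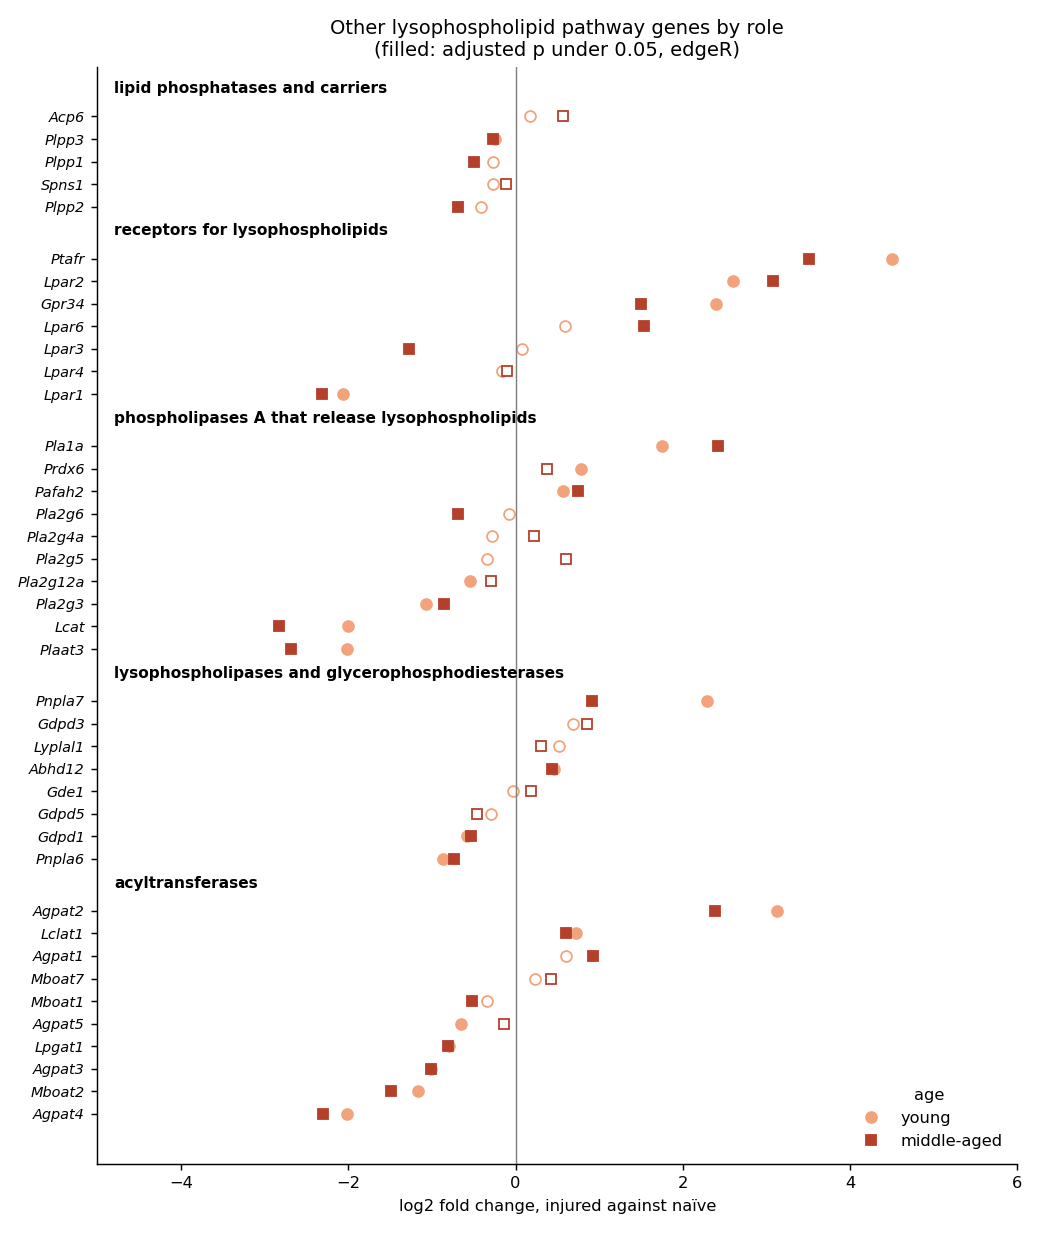
Log2 fold change of injured against naïve tissue (horizontal axis) for 40 of the 42 tested genes of lysophospholipid metabolism outside the 10, by role, in young (orange circles) and middle-aged (red squares) mice, filled where the adjusted p by edgeR was under 0.05. Gpr132 and P2ry10 are not drawn because all naïve pools had 0 counts. Receptors reach from -2.31 (Lpar1) to 4.51 (Ptafr).

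Age changed 4 of these 42 genes in naïve tissue by edgeR, against 3.8% of all tested genes called in either direction. Pnpla7 rose from 5.02 ± 1.26 CPM in young to 14.2 ± 1.76 CPM in middle-aged naïve tissue (log2 fold change 1.51, SE 0.21, adjusted p = 0.00134), Gpr34 from 22.0 ± 4.20 to 43.6 ± 2.85 CPM (0.99, SE 0.14, adjusted p = 0.00148) and Ptafr from 3.67 ± 0.987 to 13.5 ± 5.66 CPM (1.88, SE 0.31, adjusted p = 0.00436). Agpat5 fell from 174 ± 9.24 to 111 ± 21.5 CPM (-0.66, SE 0.14, adjusted p = 0.0161). In the same comparison 4 of the 6 pan-myeloid markers rose, with none at 0. The 6 summed to 71.8 to 102 CPM in young and 110 to 147 CPM in middle-aged naïve pools. Of the 6 oligodendrocyte markers 3 were called lower and none higher. Their sum was 86700 to 102000 CPM in young and 53010 to 60300 CPM in middle-aged naïve pools. The part of either list in the change of these genes was not tested. None of the 4 calls was made when only the naïve pools were fitted. In injured tissue edgeR called 0 of the 42, beside 182 of all 15866 tested genes. An unadjusted p under 0.05 was found there for 9 of the 42, beside 1527 of the 15866. DESeq2 called 3, beside 441 of the 15540 genes it tested. For the difference of effects edgeR called 0, beside 22 of the 15866, with 6 at an unadjusted p under 0.05, beside 1574. DESeq2 called 2, beside 228 of the 15016 genes it tested.

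Genes with the most similar profile over the 12 pools were sought for the 3 members whose log2 fold change was at least 1 in size at both ages. Likeness was the root mean square difference of log2 CPM, each gene being centred on its own mean, over 13084 genes. For Enpp2 the nearest were Mob3b (0.12), Nkain2 (0.17) and Cmtm5 (0.18), against a median of 1.33 over all genes compared. For Pla2g15 they were Edem1 (0.15), Pqlc3 (0.17) and Tpm4 (0.18), against a median of 1.64. For Lpcat4 they were Rell2 (0.22), Flywch1 (0.33) and Cabp1 (0.34), against a median of 1.02. These are distances over pools that differ mainly by injury, and they carry no test.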

How the data were processed

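The authors checked reads with FastQC 0.11.4, mapped them to GRCm38 with TopHat2 2.0.10 and Bowtie 1.1.2 and counted them per gene with featureCounts, and they deposited raw counts without normalization. RNA was amplified during library building. The annotation release, the strand setting and the handling of shared reads are not given in the sources used here. Besides Lpcat3, Pla2g7 and Lypla1, exon bases were shared with a gene on the opposite strand by Enpp2 (345 bases) and Lpcat2 (287 bases). Per the labels, groups of 3 pools of 5 mice were compared. Each pool holds other mice, so p-values reflect the spread between pools.

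All 12 pools were fitted in R 4.3.3 with edgeR 4.0.16 (TMM scaling, filterByExpr, glmQLFit, glmQLFTest, 1 coefficient per group), with Benjamini-Hochberg adjustment over 15866 genes and a threshold of 0.05. Standard errors were obtained from each log2 fold change and its F statistic, and log2 CPM used a prior count of 2. Exon lengths and positions came from GENCODE on GRCm38. Of 46078 identifiers 45143 had a symbol. Libraries of 9834447 to 12807437 counts put a floor of 3 counts at 0.234 to 0.305 CPM by library totals. Counting intervals are 95% Clopper-Pearson and cover counting error only. Within-pool values were tested by exchanging injury labels within each age (400 arrangements, 9 tests adjusted together). The fit across genes was tested on simulated data.

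The 10 genes, the pathway and marker lists and the tests were chosen with earlier results of these data known. All 10 genes were named. Of the pathway genes, those named were, among genes called for injury in young mice, up to 3 risers and up to 3 fallers of greatest size in each role, plus those called in an age comparison. Genes of a similar profile were sought among genes with a symbol whose mean log2 CPM reached 1. Alternatives were the Wald test of DESeq2 1.42.0, and edgeR with relative log expression scaling (size factors of the DESeq2 kind), upper quartile scaling or library totals. Further ones were 2 other filters, a replicate block, only the pools compared and each pool left out in turn. For within-pool values other summaries, prior counts and units were also used. The other experiments of the study were not used here, and 1 marker list is not reported here.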

Additional observations from a re-analysis of the deposited data

How the results depend on the processing

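The 5 counts of called members stayed within 1.5 times of their values under all alternatives run, except that Mfsd2a made 1 call for age in naïve mice with DESeq2, with no filter on low counts and without middle-aged naïve replicate 1 (0 to 1 over pools left out). Counts of called pathway genes moved for age in naïve mice to 0 with only the pools compared, for age in injured mice to 1 with library totals, 3 with DESeq2, 3 with no filter, 1 with the replicate block and 6 with only the pools compared (0 to 3 over pools left out, 3 without middle-aged naïve replicate 2), and for the difference of injury effects to 2 with DESeq2 and 2 with no filter (0 to 2 over pools left out, 2 without young naïve replicate 3). No called value of a member reversed. Reversals among uncalled values included Lypla2 in young mice with library totals (0.031) and over pools left out (-0.28 to 0.0037), Lypla2 in middle-aged mice (-0.042 to 0.61), Lpcat3 for age in injured mice with library totals (-0.053) and over pools left out (-0.095 to 0.072), the difference of effects of Mfsd2a (-0.051 to 0.29), and, of the pathway genes named, Agpat5 in middle-aged mice (-0.23 to 0.031, the latter without middle-aged naïve replicate 1). The causes were not tested. Library totals moved the median log2 fold change of all genes by injury to 0.197 in young and 0.077 in middle-aged mice, which turned 4483 higher and 4177 lower genes in young mice into 5380 and 3236, and 9 and 13 for the difference of effects into 8 and 23. Counts of called genes over the whole table moved from 603 to 1073 with DESeq2, 1153 with no filter and 71 with only the pools compared for age in naïve mice, from 182 to 441, 437 and 818 for age in injured mice, and for the difference from 22 to 228 with DESeq2 and 329 with no filter. Over pools left out these 3 counts ranged from 261 to 800, 45 to 410 and 3 to 56. Of 990 values of the 10 members over the 5 comparisons and all alternatives, 952 kept direction and call, 9 lost the call, 4 gained it and 25 reversed, of which 2 were injury effects in young mice, 1 in middle-aged mice, 8 age effects in naïve mice, 6 in injured mice and 8 differences of effects. Of the values of named pathway genes 913 kept direction and call, 38 lost the call, 5 gained it and 1 reversed. By edgeR the calls of Plpp3 were the least stable (adjusted p up to 0.669 in young and 0.161 in middle-aged mice, both with library totals). Abhd12 lost its call in young mice without young naïve replicate 1 (adjusted p = 0.0739), young injured replicate 2 (0.0503) or 3 (0.0583), and in middle-aged mice without middle-aged naïve replicate 1 (0.0903), middle-aged injured replicate 1 (0.0701) or 2 (0.114) and with only the pools compared (0.0695). In middle-aged mice Lclat1 lost it without middle-aged naïve replicate 3 (0.0592) or injured replicate 1 (0.0563), and Pla2g3 without middle-aged naïve replicate 3 (0.1003), injured replicate 1 (0.0796) or 2 (0.0786). Agpat5 lost its age call without young naïve replicate 2 (0.0709).

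The pools with the same replicate number held other mice, and their deviations from the group means correlated between -0.113 and 0.153, so the numbers did not pair the pools. With the replicate block 8 members were called for injury in young and 9 in middle-aged mice, 0 and 1 for age and 0 for the difference, as without it, and the 8 within-pool tests with an adjusted p under 0.05 had an adjusted p of 0.0352.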
